A study of Mus musculus with 2 samples.

Results

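Osteoblasts and osteocytes of the mouse cochlea were taken as the barcodes with at least 1 unique molecular identifier (UMI, a counted RNA molecule) of 3 or more of 7 bone genes, Ibsp, Sp7, Alpl, Dmp1, Mepe, Phex and Bglap2, and none of Pecam1 or C1qa, which mark endothelial cells and macrophages. Among barcodes with at least 500 UMIs, 300 genes and at most 20% mitochondrially encoded UMIs, this rule, which selected the cells on their measured UMIs of these genes, took 211 of 17423 in the noise-only library and 114 of 20133 in the library given a drug before noise, 325 of 37556 in all. The study dissected and dissociated the cochlear sensory epithelium of wild-type C57BL/6J mice aged 4 to 6 weeks and counted transcripts per droplet with 10x Genomics 3.1 chemistry. All ears were exposed to noise of 105 dB in the 8 to 16 kHz band for 2 hours and taken 2 days later. The drug library pooled 5 ears that had received the drug (90 mg/ml) ahead of the exposure, and the noise-only library pooled the 5 untreated ears of the other side of the same mice. VPA is the drug's abbreviation in the title, and no unexposed ear and no ear with drug alone is among the groups. Each group is 1 pooled library, so no difference below has a replicate check, and every interval covers counting error alone.

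Osteoblasts are the cells that lay down bone: they secrete type I collagen and matrix proteins such as osteocalcin (Bglap, Bglap2) and bone sialoprotein (Ibsp), under the transcription factors RUNX2 and SP7. Some become enclosed in the matrix as osteocytes, which switch on Dmp1, Mepe and Phex, genes of phosphate handling and mineralization, and later Sost, an inhibitor of Wnt signalling. The cochlea lies in the otic capsule, a bone known for very low turnover.

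The osteocyte genes Dmp1 and Mepe define the states described below, and osteocalcin (Bglap) is an abundant bone transcript compared between them, so the 250 bases before their transcription starts are shown (RefSeq, GRCm38.p6, 5′ to 3′ on the gene's strand). Capitals mark ACCACA, the core that RUNX factors bind, or its reverse complement TGTGGT. The windows lie at chr3:88384467-88384716 on the minus strand for Bglap, and on the plus strand at chr5:104202367-104202616 for Dmp1 and chr5:104325079-104325328 for Mepe.
Bglap: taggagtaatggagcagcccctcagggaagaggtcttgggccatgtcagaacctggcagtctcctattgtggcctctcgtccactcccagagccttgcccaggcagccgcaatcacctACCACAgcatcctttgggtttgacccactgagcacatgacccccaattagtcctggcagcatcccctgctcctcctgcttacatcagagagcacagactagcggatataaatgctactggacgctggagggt
Dmp1: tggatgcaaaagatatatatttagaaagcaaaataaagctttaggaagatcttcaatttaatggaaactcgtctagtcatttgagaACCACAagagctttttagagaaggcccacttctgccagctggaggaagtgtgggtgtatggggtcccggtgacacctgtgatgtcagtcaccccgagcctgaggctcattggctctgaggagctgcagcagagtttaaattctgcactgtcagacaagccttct
Mepe: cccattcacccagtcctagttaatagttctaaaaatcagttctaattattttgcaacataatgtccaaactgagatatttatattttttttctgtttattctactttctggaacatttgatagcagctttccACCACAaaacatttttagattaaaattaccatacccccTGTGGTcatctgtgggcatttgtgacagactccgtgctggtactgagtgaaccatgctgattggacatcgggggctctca
The motif begins 132 bases before the start in Bglap and 164 in Dmp1, and Mepe holds it at 118 bases and, on the other strand, at 80. The window of the same length before Ibsp, also searched and not printed, lacks the motif on both strands. On either strand it occurs in 14.0% of the 32817 promoter windows of this length, and a match describes the letters only. Dmp1 (5:104202613-104214102), Ibsp (5:104299171-104311469), Mepe (5:104325329-104338611) and Spp1 (5:104435118-104441050) are neighbours on the plus strand of chromosome 5 in GENCODE M21. Bglap (3:88383501-88384464), Bglap2 (3:88377736-88378699) and Bglap3 (3:88368616-88372743) lie side by side on the minus strand of chromosome 3. The Bglap transcript shares 74.7% of its 50-base words with that of Bglap2, with a longest shared run of 241 bases, so reads could be assigned to either gene and both are read together below.

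The noise-only library held 38380393 UMIs in 18545 barcodes and the drug library 39939170 in 21773. The bone cells were deeper than the rest, with a median of 3025 UMIs in the noise-only and 2256 in the drug library against 1168 and 1217 over all filtered barcodes. Their summed UMIs came to 807759 and 312526, so 1 UMI weighs more in the drug library and 3 UMIs, the limit that a count of 0 allows, equal 3.71 and 9.60 CPM (UMIs of a gene per 1000000 summed UMIs). Mitochondrially encoded UMIs had a median of 3.03% and 4.36% in them, below the 4.79% and 6.52% of all filtered barcodes. Another 20 noise-only and 5 drug barcodes met the count of bone genes and were left out for Pecam1 or C1qa. The libraries shared 111 barcode sequences, of which 3 and 1 were bone cells, and the doublet caller Scrublet marked 6 bone cells in each library, all kept.

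The markers matched the osteoblast part of the label closely and the osteocyte part less so. Osteocalcin, measured through Bglap, had 31030 CPM in the noise-only and 43702 CPM in the drug bone cells, against 131 and 22.9 CPM in all other barcodes. A Bglap UMI was found in 174 of 211 (82.5%) and 99 of 114 (86.8%) of them, against 1.32% and 0.786% of barcodes with Schwann cell markers (median 995 and 1217 UMIs), which should lack it. The bone cells held 84.3% and 94.1% of each library's Bglap UMIs. Since Bglap shares most of its sequence with the rule gene Bglap2, these values are not independent of the rule. Of genes outside the rule and without such a copy in it, they held 86.5% and 88.8% of the UMIs of Ifitm5, a membrane protein of mineralizing osteoblasts, and 83.1% and 90.1% of those of the collagen Col22a1. Runx2 was found in 55.9% and 43.9% of them against 1.38% and 1.15% of the other barcodes. Among genes of the rule Ibsp was nearly universal, with a UMI in 94.3% and 94.7%.

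Several genes that mark osteocytes beyond the rule were scarce. Sost had 9 UMIs in 6 noise-only cells and 0 in the drug cells, Fgf23, a phosphate-regulating hormone, had 2 UMIs and 0, and Wnt1 had 0 in both. Phospho1, a phosphatase of matrix vesicles that was listed with the osteoblast markers, was scarce too, with 4 UMIs in each library. Among the osteocyte markers Ptprz1, a receptor phosphatase, was found in 23.2% and 21.1% of the bone cells against 4.79% and 4.81% of the others. Irx5 was found in 21.8% and 14.0% of bone cells against 6.70% and 7.31% of the others. Barcodes with fibrocyte markers held Irx5 more often (35.4% and 25%). The 10 osteocyte markers outside the rule came to 311 and 333 CPM in sum, against 185 and 193 CPM in the other barcodes. Alpl, the tissue-nonspecific alkaline phosphatase, was shared with other barcodes: the bone cells held 41.8% and 16.5% of its UMIs.

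Other cell types were also represented in their RNA. UMIs of at least 2 markers of another cell type were found in 111 (52.6%) noise-only and 53 (46.5%) drug bone cells. At least 3 of 9 Schwann cell and satellite glia markers were found in 61 (28.9%) and 21 (18.4%), below the 62.6% and 48.9% of the other barcodes. The summed level of those 9 markers was 2237 and 3321 CPM in bone cells against 12116 and 8710 CPM elsewhere. Haemoglobin and Alas2 differed between the libraries. Their sum was 6304 CPM in the noise-only and 29754 CPM in the drug bone cells, against 15193 and 20978 CPM in the other barcodes. At least 3 of these 5 genes were found in 3 and 11 bone cells, and 1 cell per library held 49.4% and 26.0% of their UMIs. Osteoclast genes came to 96.6 and 96.0 CPM in sum, against 46.4 and 47.3 CPM in the other barcodes, with the osteoclast fusion genes Dcstamp and Ocstamp at 0 in both libraries. The part of other cells' RNA in the results below was not tested beyond the values given.

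**Figure D1:**
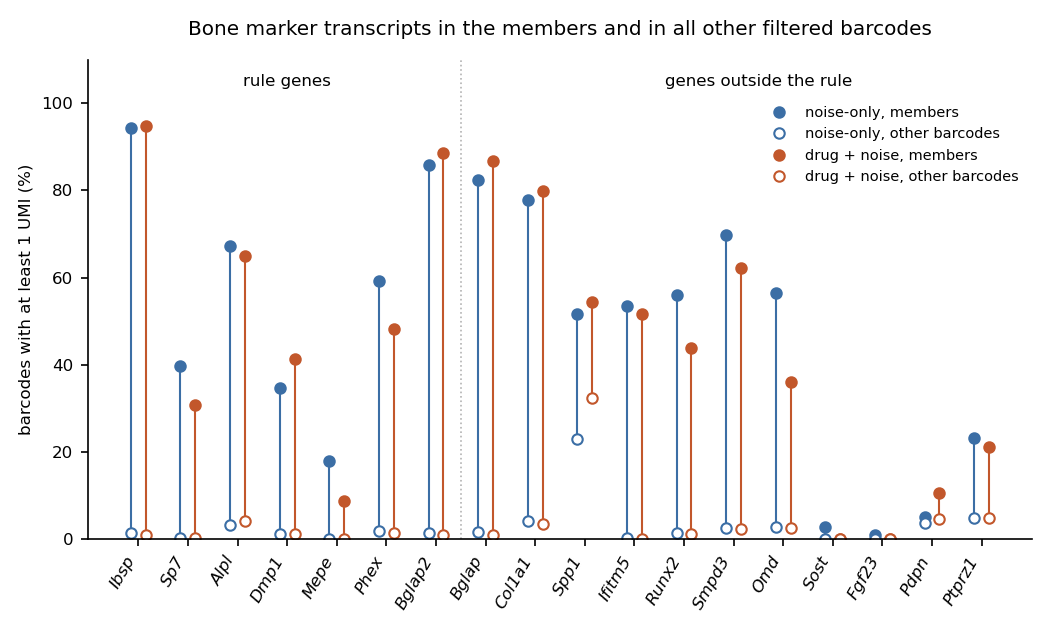
Share of barcodes with at least 1 UMI (y axis, %) of each gene (x axis) in the bone cells (filled) and in all other filtered barcodes (open) of the noise-only (blue) and drug (orange) libraries; genes left of the dotted line chose the cells. Ifitm5 and Runx2, which did not, lie far above the other barcodes, as does Bglap, which shares sequence with the rule gene Bglap2, while Sost and Fgf23 lie near 0.

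The threshold of 3 genes can be described with Ifitm5 and Runx2, which the rule did not use. The 86 noise-only and 56 drug barcodes with exactly 3 rule genes had Ifitm5 at 440 and 302 CPM and a Runx2 UMI in 44.2% and 35.7%. The 175 and 151 barcodes with 2 rule genes and no Pecam1 or C1qa, just outside, had Ifitm5 at 17.99 and 37.7 CPM and a Runx2 UMI in 29.7% and 19.9%.

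Bone cells formed a smaller share of the drug library. They were 1.21% of noise-only barcodes (exact binomial 95% interval 1.05 to 1.38%) and 0.566% of drug barcodes (0.467 to 0.680%), a ratio of 0.468 (0.369 to 0.590). After each barcode was thinned to 1000 UMIs, with shallower barcodes left out (7430 and 8143), the shares were 1.38% and 0.575% and the ratio 0.417. With 1 dissection pool per group, a difference in how much bone was dissected or dissociated cannot be told apart from a difference in the ears.

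As a description of osteoblast against osteocyte states, bone cells with a UMI of Dmp1 or Mepe were set against those with neither. The first made up 100 of 211 noise-only cells (47.4%, 40.5 to 54.4%) and 51 of 114 drug cells (44.7%, 35.4 to 54.3%), and 25.9% and 27.7% after thinning. Dmp1, an acidic matrix protein that seeds mineral, was found in 73 (34.6%) and 47 (41.2%). Mepe, a matrix protein whose fragments restrain mineralization, was found in 38 (18.01%) and 10 (8.77%). Its level was 111 and 51.2 CPM, a ratio of 0.459 (0.252 to 0.787), with 18.9% and 31.25% of its UMIs in 1 cell each. After thinning, Mepe was found in 14 of 189 (7.41%, 4.11 to 12.1%) and 3 of 94 (3.19%, 0.663 to 9.04%), shares whose intervals overlap. Most of the Mepe difference lay in cells with Mepe alone, 27 in the noise-only and 4 in the drug library, whose median depth was 5151 and 4048.5 UMIs. The genes did not mark the same cells: only 11 noise-only and 6 drug cells held both, and Mepe was found in 15.1% of noise-only cells with Dmp1 and 19.6% of those without, and in 12.8% and 5.97% of drug cells.

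Few genes separated these states in both libraries. Of 830 genes with at least 50 UMIs in each library's bone cells, 11 were at least 1.5 times higher with Dmp1 or Mepe in both libraries (1.33%) and 6 lower (0.723%), the higher ones counting Dmp1 itself, which defined the split. Within the noise-only library alone the shares were 1.93% and 2.89%, and within the drug library 10.5% and 6.39%. The bone matrix list had 2 of 18 measured genes higher and 0 lower in both, with median log2 ratios of 0.03 and -0.17, against 0.03 and 0.01 over all 830 genes. The osteocyte list had 0 of 4 in either direction.

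Spp1, encoding osteopontin, a matrix protein to which osteoclasts attach, was among the higher genes. It was not particular to bone cells, which held 3.77% and 1.05% of its UMIs, and it was found in 56.0% and 66.0% of barcodes with fibrocyte markers. Its UMIs numbered 1884 in 100 noise-only cells with Dmp1 or Mepe and 883 in 111 without, a ratio of 2.44 (2.25 to 2.65). In the drug library 807 UMIs in 51 cells stood against 346 in 63, a ratio of 3.67 (3.23 to 4.17). Timp1, an inhibitor of matrix metalloproteinases, was 2.29 (1.66 to 3.17) and 3.32 (2.21 to 5.08) times higher, and Tnfrsf11b, the RANKL decoy receptor osteoprotegerin, 1.59 (0.997 to 2.57) and 4.94 (2.66 to 9.76) times, with 1 inside the noise-only interval. The calcium-binding protein S100a1, the guidance factor Slit2, the FGF receptor Fgfr1 and Mgp, an inhibitor of mineralization, were also higher in both, as were Plpp3, Hspb1 and Rgs3, of which Hspb1 in the noise-only library (0.952 to 2.59) and Rgs3 in the drug library (0.916 to 2.70) had intervals that include 1. With at least 3 of the other 5 rule genes required in both states, the log2 ratio turned to -3.49 for Mgp in the drug library and to -0.73 and -0.39 for Plpp3. The 6 lower genes were Tmem119, a membrane protein that promotes osteoblast differentiation (0.658 and 0.414 times), the histone gene Hist1h2bc (0.505 and 0.449 times), Cxcl12, Bpifa1, S100a8 and S100a9. Alpl (0.678 and 0.574 times) and Smpd3, a sphingomyelinase needed for mineralization (0.799 and 0.677 times), had both intervals under 1; Alpl missed 1.5-fold in the noise-only library and Smpd3 in both. Alpl and the state genes belong to the rule, under which a cell without Dmp1 and Mepe needs 3 of the other 5 genes: with that demand on both states, the Alpl ratio was 0.807 and 0.743. Cxcl12, a chemokine of marrow stromal cells, had ratios of 0.339 and 0.229, with 38.6% and 72.7% of its UMIs in 1 cell each. For S100a8, S100a9 and Bpifa1, 1 cell per library held between 51.1% and 99.6% of the UMIs.

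Osteocalcin did not follow the split. Bglap was 1.18 times (1.15 to 1.21) as high with Dmp1 or Mepe in the noise-only library and 0.726 times (0.7003 to 0.753) in the drug library. Split by Dmp1 alone, Bglap was 1.97 times as high with Dmp1 in the noise-only library and 0.728 times in the drug library. Split by Mepe alone, it was 0.530 and 0.922 times as high with Mepe. Spp1 was 4.21 and 4.38 times higher with Dmp1 than without, and 0.919 and 0.185 times with Mepe.

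**Figure D2:**
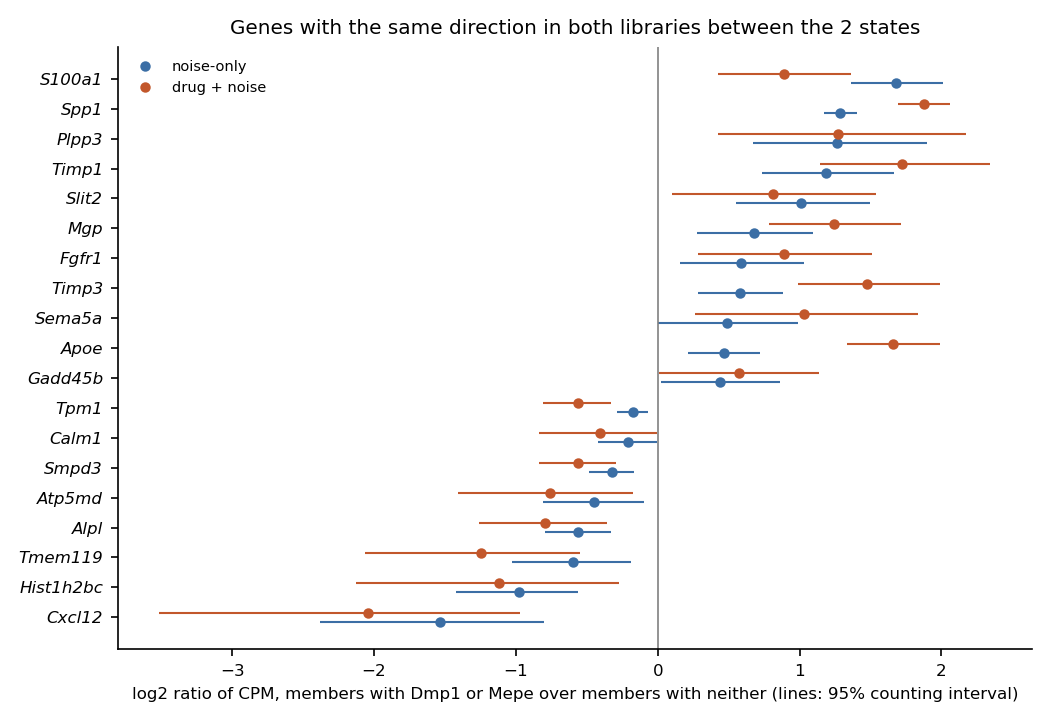
Log2 ratio of summed CPM (x axis) of bone cells with Dmp1 or Mepe over those with neither for named genes (y axis), in the noise-only (blue) and drug (orange) libraries; lines are exact 95% counting intervals. Spp1 and Timp1 lie above 1 in both libraries and Cxcl12 under -1; S100a8, S100a9 and Bpifa1, further left, are not drawn.

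Clusters were also made from the bone cells without the 7 rule genes. At the lower of the resolutions used, the main setting, there were 5 clusters, and at the higher, an alternative, 9. The clusters described below are those of the higher resolution. The Mepe-rich cluster below was seen there alone: over both libraries its Mepe level was 1444 CPM. At the lower resolution the highest Mepe level of a cluster was 116.5 CPM. In 1 of the 9, osteocalcin was highest: the 39 noise-only and 28 drug cells of this Bglap-rich cluster had Bglap at 71856 and 73878 CPM, Col1a1 at 10916 and 13851 CPM and Spp1 at only 1023 and 820 CPM. A Spp1-rich cluster of 28 and 27 cells had Dmp1 at 1477 and 1156 CPM and Spp1 at 22524 and 10579 CPM, with Bglap at 41942 and 41650 CPM. Of the 1037 noise-only Spp1 UMIs of this cluster, 417 came from 1 cell. Mmp13, a collagenase of osteoblasts and osteocytes, stood at 174 CPM (8 UMIs) in its noise-only and 2711 CPM (122 UMIs) in its drug cells. Another cluster of 18 and 9 cells, led by Wfdc1, Acta2 and Col3a1, also held much Spp1, at 10890 and 16543 CPM, and more Mmp13, at 903 CPM (32 UMIs) and 3397 CPM (54 UMIs).

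A small Mepe-rich cluster of 14 noise-only and 6 drug cells had the highest Mepe level. In its noise-only cells Mepe was at 1677 CPM, from 30 UMIs in 7 cells, and 17 of these UMIs came from 1 cell. Dmp1 was at 1230 CPM and Phex at 1845 CPM in these noise-only cells. Bglap, at 4193 CPM, and Col1a1, at 839 CPM, lay far under the Bglap-rich cluster. In its drug cells Mepe had 2 UMIs, Dmp1 3, Phex 6 and Col1a1 0. It held 3 of the 9 Sost UMIs, and the cluster led by epithelial genes held 3 as well, in 1 cell. The cells of the Mepe-rich cluster were shallow, with a median of 979 and 710.5 UMIs. Coch, encoding the matrix protein cochlin of cochlear fibrocytes, was at 7045 and 10992 CPM in them, so the cluster is given no cell type name. Mepe is a gene of the rule, and Chad, Btla and Npy stood before it among the leading genes. Further clusters led in Schwann cell genes (31 and 16 cells, 9 of them marked as doublets), in epithelial genes or in vascular and fibrocyte genes. A cluster of 10 noise-only cells led in mitotic genes. The clusters did not follow the split by Dmp1 or Mepe, as each held cells with either gene. Over both libraries these numbered 37 in the Spp1-rich, 25 in the Bglap-rich and 13 in the Mepe-rich cluster. The vascular and fibrocyte cluster held 20, the Schwann-marked cluster 19 and the other clusters between 4 and 17. The cells of a cluster share the genes that formed it, so these levels are descriptions, and numbers of cells per cluster are not compared between libraries.

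**Figure D3:**
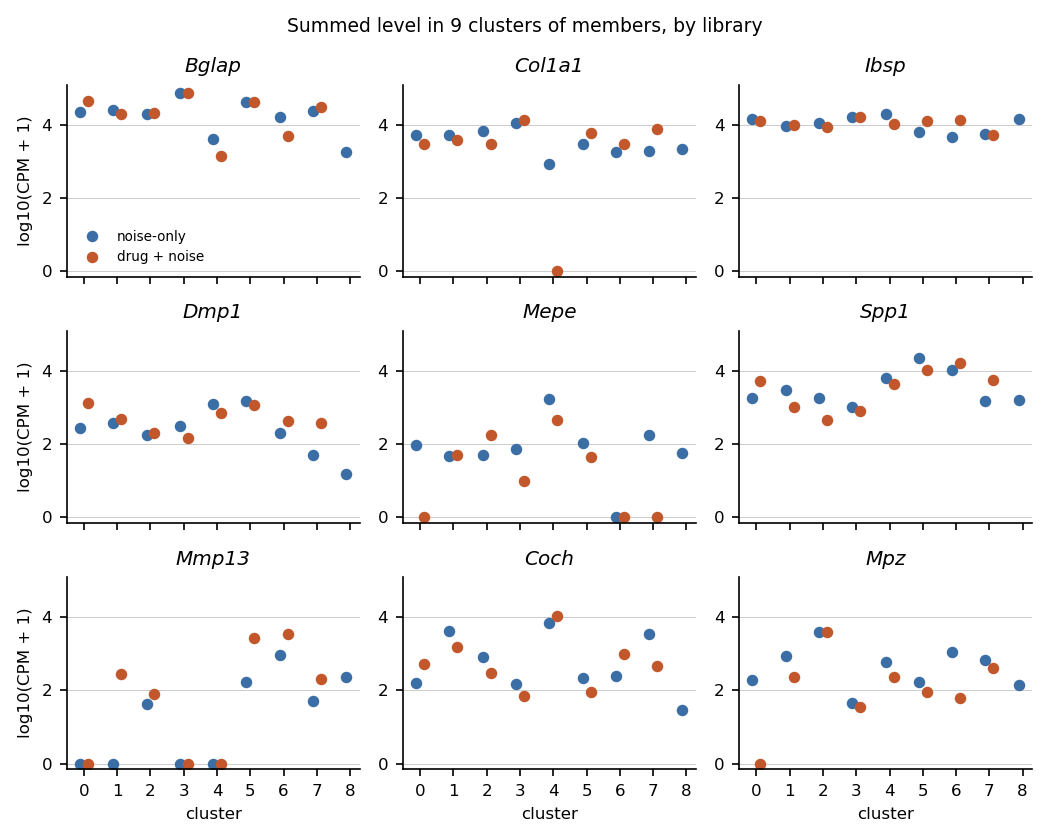
Summed level as log10 of CPM plus 1 (y axis) of 9 genes in the 9 clusters of bone cells (x axis) of the noise-only (blue) and drug (orange) libraries; 1 point is 1 library's cells in 1 cluster. Cluster 3 is Bglap-rich, cluster 5 Spp1-rich and cluster 4 Mepe-rich with low Bglap and Col1a1; cluster 8 is mitotic and has noise-only cells alone.

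Between the libraries, the drug bone cells had more osteocalcin and type I collagen RNA and less cell cycle and MHC class I RNA than the noise-only bone cells. For osteocalcin this rests on the rule gene Bglap2 and on Bglap, which shares most of its sequence with it. Of 6420 genes with at least 20 UMIs in both sums together, 9.35% were at least 1.5 times higher and 19.5% at least 1.5 times lower in the drug library, with a median log2 ratio of -0.09. These shares are the background for the counts that follow.

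The cell cycle list stood furthest from that background: 0 of 12 measured genes were higher and 11 lower, with 807 UMIs of the list in the noise-only and 63 in the drug bone cells. Top2a, the mitotic DNA topoisomerase, had 103 UMIs in 14 noise-only cells and 0 in drug cells, at least 13.3-fold lower against the limit of 3 UMIs. Mki67, the proliferation antigen Ki-67, had 64 UMIs in 13 cells and 0, at least 8.25-fold lower. The ubiquitin-conjugating enzyme Ube2c (56 UMIs), the survivin gene Birc5 (37) and the kinase Cdk1 (34) were also at 0 in the drug cells. Cenpf, a kinetochore protein, had 52 UMIs against 1. The median log2 ratio of the list was -4.25, and -2.19 with genes at 0 set to their bound. In all other barcodes the same list had a median of 0.31, and Top2a a ratio of 1.21.

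These UMIs were gathered in few cells. At least 4 of the 18 cell cycle genes, a number chosen after the values were seen, were found in 21 of 211 noise-only bone cells (9.95%, 6.27 to 14.8%), with up to 16 genes in a cell, and in 0 of 114 drug bone cells, which allows a share of up to 2.63% by the limit of 3 counts and 3.18% by the exact interval. The highest number in a drug cell was 3. Among all other barcodes the share was 1.12% in the noise-only and 1.58% in the drug library, and among barcodes with macrophage markers 10.8% and 8.35%. Of bone cells with at least 4000 UMIs, 18 of 78 noise-only and 0 of 25 drug cells passed, and after thinning to 1000 UMIs 10 of 189 and 0 of 94.

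The cycling bone cells held osteoblast genes, with less osteocalcin than the rest. All 21 held Ibsp, at 1.39 times (1.33 to 1.46) the level of the other 190 noise-only bone cells. Sp7 was found in 14 of them and Panx3, a channel of differentiating osteoblasts, in 11, at 2.14 times (1.33 to 3.37) the level of the rest. Bglap was 0.353 times (0.336 to 0.370) and Spp1 0.315 times (0.269 to 0.368) as high. Dmp1 was found in 2 of them and Mepe in 9. None was marked as a doublet, their median depth was 6053 UMIs, and 11 held at least 2 markers of another cell type. Of the 100 noise-only cells with Dmp1 or Mepe 10 were cycling, as were 11 of the 111 with neither. Among the 27 noise-only cells with Mepe alone 8 were cycling, so the split by these genes did not keep cycling cells off the osteocyte side.

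**Figure D4:**
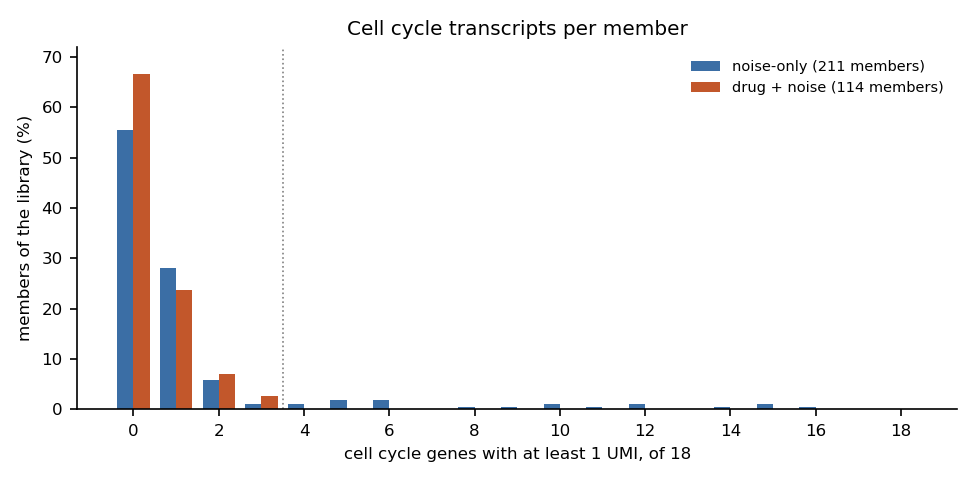
Share of bone cells of each library (y axis, %) by the number of 18 cell cycle genes with at least 1 UMI (x axis), noise-only in blue and drug in orange; the dotted line is the threshold of 4 genes. Noise-only cells reach 16 genes and no drug cell passes 3.

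Osteocalcin and type I collagen were higher in the drug bone cells, by modest factors. Bglap2 had 19948 CPM in 181 noise-only and 30516 CPM in 101 drug cells with a UMI, a ratio of 1.53 (1.49 to 1.57). Bglap had a ratio of 1.41 (1.38 to 1.44). Bglap2 helped to choose the cells and Bglap shares most of its sequence, so these ratios are not independent of the rule. Col1a1 was at 5757 and 7942 CPM, a ratio of 1.38 (1.31 to 1.45), and Lox, which cross-links collagen, had 79 UMIs in 49 and 71 in 33 cells, a ratio of 2.32 (1.66 to 3.24). Ibsp did not differ beyond counting error over all bone cells (0.990, 0.953 to 1.03). Its ratio was 1.12 (1.06 to 1.19) in cells with Dmp1 or Mepe and 0.905 (0.860 to 0.951) in cells with neither. For Col1a1 these ratios were 1.13 and 1.65. The log2 ratio lay between -0.32 and 0.23 for Ibsp and between 0.11 and 0.85 for Col1a1 over 17 alternatives. The osteocalcin difference lay in the cells without Dmp1 or Mepe, where the Bglap ratio was 1.71, against 1.05 in cells with either. It was smaller once the 21 cycling cells were left out (log2 ratio 0.32 in place of 0.49) and when every cell counted equally (0.13), and the sign turned when the threshold was lowered to 2 rule genes (-0.04). Over 17 alternatives the Bglap log2 ratio lay between -0.04 and 0.87. In the other barcodes Bglap was lower in the drug library (ratio 0.175). Within 3 of the clusters the level was close in both libraries: 71856 and 73878 CPM in the Bglap-rich, 41942 and 41650 in the Spp1-rich and 20076 and 20680 in the Schwann-marked cluster. It was higher in the drug cells of the epithelial cluster (23767 and 31216 CPM) and lower in those of the cluster led by Wfdc1 (15940 and 4969 CPM). Bglap was also lower in the drug cells of the vascular and fibrocyte cluster (25000 and 19300 CPM). The same held in the Mepe-rich cluster (4193 and 1403 CPM), where the drug value rests on 6 UMIs. A cluster of 39 noise-only and 5 drug cells had 22719 and 43795 CPM, and the mitotic cluster of noise-only cells alone had 1781 CPM.

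Over the whole bone matrix list 4 of 26 measured genes were at least 1.5 times higher and 3 lower, with a median log2 ratio of 0.28 against -0.09 over all genes. Mgp, Col3a1, Col13a1 and Bglap3 were the higher ones, and Col12a1, Chad and Omd, encoding osteomodulin of mature osteoblasts (344 and 76 UMIs, ratio 0.571, 0.439 to 0.734), the lower ones. The osteoblast transcription factors had 3 of 13 higher (Dlx3, Cbfb, Foxo1) and 1 lower (Dlx6). Dlx3 (0.655 to 3.79) and Foxo1 (0.692 to 4.10) rested on 10 drug UMIs each, with intervals that include 1; Runx2 (0.931, 0.712 to 1.21) and Sp7 (0.923, 0.642 to 1.31) had intervals that include 1. Dmp1 (1.30, 1.04 to 1.61) and Phex (1.27, 1.04 to 1.55) were higher in the drug cells by less than 1.5 times. Alpl was lower by less than that (0.828, 0.708 to 0.967). A Phex UMI was found in fewer of the drug cells (48.2%) than of the noise-only cells (59.2%). Over 17 alternatives the log2 ratio lay between -0.29 and 0.70 for Phex and between 0.05 and 0.64 for Dmp1. Sp7, Dmp1, Phex and Alpl are genes of the rule, so their ratios are not independent of it.

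The factors by which osteoblasts govern osteoclasts had 4 of 10 measured genes higher and 1 lower, a median log2 ratio of 0.39. Tnfrsf11b had 79 UMIs in 52 noise-only and 58 in 31 drug cells, a ratio of 1.90 (1.33 to 2.70), and a ratio of 1.57 in the other barcodes. Timp1 was 1.61 times (1.26 to 2.05) as high and 2.51 times in the other barcodes. Mmp13 had 65 UMIs in 17 cells and 198 in 22, a ratio of 7.87 (5.92 to 10.6), with 27.7% and 25.8% of them in 1 cell each, and a ratio of 3.39 in the other barcodes. Cxcl12, the other higher gene (1.71, 1.20 to 2.44), had 40 of its 55 drug UMIs in 1 cell. Tnfsf11, encoding RANKL itself, had 11 and 0 UMIs, and Tgfb1 was the lower gene (0.585, 0.335 to 0.970). The transforming growth factor and bone morphogenetic protein list had 3 of 29 higher and 8 lower, among them Bmp5, with 30 UMIs in 26 noise-only cells and 1 in the drug cells, and the latent TGF-beta binding protein Ltbp1 (0.527, 0.309 to 0.860). The Wnt list had 2 of 18 higher and 1 lower.

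MHC class I genes, which present peptides to T cells, were lower in the drug bone cells. Of 8 measured genes 5 were at least 1.5 times lower and 0 higher, with a median log2 ratio of -0.94, against -0.10 in the other barcodes. H2-K1 had 331 UMIs in 123 noise-only cells and 53 in 38 drug cells, a ratio of 0.414 (0.304 to 0.554) against 1.01 in the other barcodes. H2-D1 (0.495, 0.386 to 0.628), its light chain gene B2m (0.545, 0.427 to 0.689), H2-Q4 (0.369, 0.128 to 0.873) and H2-T23 (0.287, 0.0558 to 0.933) went the same way. Cycling cells had more of this RNA, H2-K1 at 1.88 times the level of other noise-only bone cells, and without them the median was -0.83. The interferon-stimulated list had 2 of 12 higher and 2 lower, with Ifit1 at 66 and 8 UMIs and Ifi27l2a at 155 and 98.

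Of the other genes that were higher by the size of their bound, Nupr1, a stress-induced chromatin protein, had 408 UMIs in 129 and 278 in 71 cells, a ratio of 1.76 (1.51 to 2.06). Atf3, a transcription factor of stress, had a ratio of 1.70 (1.46 to 1.98) and Klf2 1.75 (1.46 to 2.09), the only genes of 19 measured immediate early genes past 1.5-fold in either direction. Fos was 1.31 times (1.22 to 1.40) and Egr1 0.819 times (0.743 to 0.902) as high. The metallothioneins Mt1 (1.56, 1.41 to 1.74) and Mt2 (1.72, 1.38 to 2.13), the growth arrest gene Gadd45g (1.68), the ectonucleotidase Entpd3 (2.18), the membrane protein Emp1 (1.65) and the protease homologue Prss35 (1.53) completed the list with Mal (1.90), a myelin protein and Schwann cell marker. In the other barcodes Atf3, Klf2, Mt1 and Mt2 had ratios of 0.948, 1.02, 0.972 and 1.03. The endoplasmic reticulum stress list had 2 of 18 higher and 2 lower, and the heat shock list 1 of 11 higher (Hspb1) and 0 lower.

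The lower genes held, next to the mitotic ones, the chromatin genes Hmgn2 (0.280, 0.162 to 0.457), H2afz (0.403, 0.330 to 0.489) and Hmgb2 (0.332, 0.217 to 0.489) and the microtubule regulator Stmn1 (0.409). Without the cycling cells the log2 ratios of Hmgb2 and Stmn1 were 0.26 and 0.20, that of H2afz -0.18 and that of Hmgn2 -0.75. Clec11a, the osteogenic growth factor osteolectin, had 151 UMIs in 87 noise-only and 22 in 19 drug cells, a ratio of 0.377 (0.229 to 0.591), and kept a log2 ratio of -1.25 without the cycling cells, against -1.38 with them. Ndnf, a secreted glycoprotein (0.287, 0.144 to 0.523), the guanine nucleotide exchange factor Rasgrp2 (0.232, 0.0973 to 0.478), the centriole protein Poc1a (0.203), Mipep (0.227) and Mrpl13 (0.262), which serve mitochondrial protein processing and translation, and Selenoh (0.350) were lower too. Coch had 1103 and 547 CPM, a ratio of 0.496 (0.419 to 0.585), while in the other barcodes it was 1.56 times as high with the drug; with the threshold at 2 rule genes its log2 ratio was 0.02. The glycolysis and hypoxia list had 0 of 17 higher and 4 lower (Pfkp, Eno1, Pkm, Hif1a), with a median of -0.21. The histone deacetylase list had 0 of 5 measured genes higher and 2 lower (Hdac3 and Hdac5), both with intervals that include 1.

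**Figure D5:**
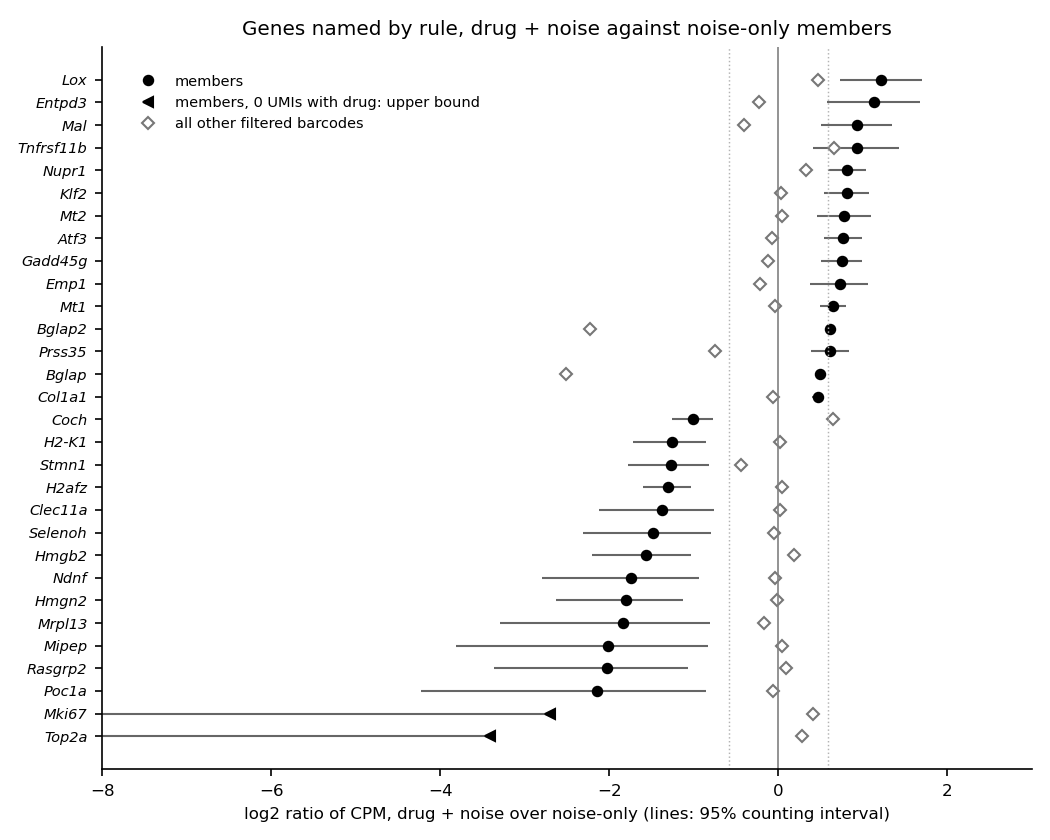
Log2 ratio of summed CPM, drug over noise-only (x axis), for the genes named by rule (y axis) in the bone cells (black points; arrowheads mark the upper bound for genes with 0 UMIs in the drug cells) and in all other barcodes (open diamonds); lines are exact 95% counting intervals and dotted lines mark 1.5-fold. Top2a and Mki67 lie furthest left, Lox furthest right, and H2-K1 is lower in bone cells with the other barcodes near 0.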

How the data were processed

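Per the file headers, the deposited matrices were written by Cell Ranger 5.0.1 and hold whole-number UMI counts of genes by barcode without normalization. Per the submitters' processing notes, Cell Ranger 5.0, STAR, Seurat 3.2.2, mm10 and GRCm38 were also listed. The sources used here give no annotation release. Barcodes had at least 500 UMIs as deposited. The bone cells and all gene lists were chosen with earlier results of these data known. Bone cells were taken by the rule given at the opening, without doublet removal. Scrublet (scanpy 1.11.5) marked 805 (4.62%) noise-only and 2597 (12.9%) drug barcodes and served as an alternative.

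UMIs of a gene were summed over the bone cells of a library and divided by their total to give CPM. Ratios have exact conditional binomial intervals of 95% and shares exact binomial ones. Log2 ratios used 0.5 UMI added to each sum. Cells of 1 library are not independent samples, so intervals cover counting error only, and no p-value, standard error or test was made with 1 library per group. The drug comparison used genes with at least 20 UMIs in both sums together and a 1.5-fold threshold, on all genes. Lists (20) are described by counts and medians. Named genes were the members of the lists and, in each direction, the 15 genes with the most extreme inner interval bound (the one closer to 1). Those needed at least 50 UMIs in the larger sum, a UMI in at least 5% of its cells and at most 20% of its UMIs in 1 cell. For the states, up to 12 genes per direction were named by the smaller log2 ratio of both libraries, with both intervals off 1. Genes encoded in mitochondria or for ribosomal proteins, haemoglobins or immunoglobulins, and models lacking a symbol, were not named. Bone cells were clustered without the rule genes (2000 variable genes, 20 components, 15 neighbours, Leiden resolution 0.5 and, as an alternative, 1). The ratio step was tested on simulated data. Scripts ran in Python 3.11.15 with scipy 1.17.1, matplotlib 3.10.9, pandas 2.3.3 and numpy 2.4.6, and in R 4.3.3 with edgeR 4.0.16 for TMM factors.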

Additional observations from a re-analysis of the deposited data

How the results depend on the processing

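No paired analysis was possible because each group is 1 library of pooled ears, and for the same reason no replicate could be left out. The ratio of bone cell shares stayed between 0.402 and 0.594 over 8 alternatives; 0.594, with 2 rule genes, lay outside the counting interval of the main value. The share with Dmp1 or Mepe was 39.6% with 2 rule genes in the noise-only library, 25.9% and 27.7% after thinning, 18.01% and 8.77% for Mepe alone, 5.21% and 5.26% for both genes together, and 34.6% for Dmp1 in the noise-only library. Genes higher and lower in both libraries between states numbered 11 and 6. They numbered 3 and 25 by Mepe alone, 6 and 10 with 3 of the other 5 rule genes in both states, 20 lower by both genes against neither and 13 lower by Dmp1 alone. By Mepe alone the log2 ratio turned for Spp1 (-0.12 and -2.40), Plpp3 (-1.77) and Mgp (-1.77) in the noise-only library, and for Timp1 (-0.13), S100a1 (-0.35), Timp3 (-0.75) and Tmem119 (0.11) in the drug library. By both genes against neither it turned for Spp1 (-0.925, drug) and for Plpp3 (-3.18) and Mgp (-2.19) in the noise-only library. With 3 of the other 5 rule genes it turned for Plpp3 (-0.73 and -0.39) and Mgp (-3.49, drug). Bpifa1 turned without Scrublet doublets (1.28, drug), and S100a9 (1.36, drug) and S100a8 (1.37, noise-only) without cells holding 3 neutrophil markers.

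In the drug comparison 600 genes were higher and 1254 lower past 1.5-fold. With 2 rule genes 953 were higher. Without cells holding markers of other types the counts were 279 and 699, after thinning 199 and 402, with 100 UMIs in both sums 48 and 148, and with 1 UMI 3069 and 5317, the number of genes measured changing with each of these. Leaving out the 3 top cells of each gene gave 209 higher. Coch turned with 2 rule genes (0.023). Without the cycling cells, an alternative chosen after the data were seen, the cell cycle median turned to 0.47, Hmgb2 to 0.26, Stmn1 to 0.20 and Mki67 to 1.09, a value that rests on the 0.5 UMI added to sums of 0. Without neutrophil-marked cells, by Dmp1 alone and, for the states, without doublets were also chosen after the data were seen. There were 9 clusters at a resolution of 1 and 5 at 0.5. The MHC class I median ranged from -1.72 to -0.64 and the bone matrix median from 0.02 to 0.50 over 17 alternatives. At the depth of 312526 UMIs in the drug bone cells, a count of 0 allows up to 9.60 CPM.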

Other observations

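Cartilage collagens were part of the bone cells' RNA. Col2a1, the main collagen of cartilage, was found in 55.5% of noise-only and 46.5% of drug bone cells, at 711 and 854 CPM, 49.4 and 54.0 times the level of all other barcodes. Col11a1, its fibril partner, was found in 69.7% and 60.5%, at 74.6 and 89.7 times that level. The other chondrocyte markers did not follow: Matn1, Matn3 and Col10a1 were at 0 in the bone cells of both libraries, and at least 3 of 11 chondrocyte markers were found in 5 noise-only and 2 drug cells. Col2a1 had a UMI in 83.6% of cells of the Bglap-rich cluster, and also in 70% of the mitotic cluster, where Bglap was low. The enrichment of genes was ranked among those found in a set minimum share of the bone cells of both libraries. Genes found in fewer cells, such as Mepe, were not ranked. These 2 collagens were among the 15 highest, with Bglap, Bglap2, Ifitm5, Col22a1, Prss35, Smpd3 and Bmp3 among the others.

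Erythroid RNA differed between clusters and, in some of them, between the libraries. In the Bglap-rich cluster Hbb-bs was at 98.6 CPM (16 UMIs in 14 cells) in the noise-only and 23463 CPM (2690 UMIs in 12 cells) in the drug cells, and in the Spp1-rich cluster at 109 and 13713 CPM. In another cluster at the higher resolution it was at 7668.5 CPM in 39 noise-only cells, against 265 CPM in 5 drug cells. It was highest in both libraries in the epithelial cluster, at 24648 CPM (1511 UMIs) in the noise-only and 47791 CPM (1655 UMIs) in the drug cells. Its part in the other differences was not tested.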
